A study of Mus musculus with 20 samples.

Results

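The genes described here were 39 innate immune genes of the mouse, taken as a fixed list of names, out of 21938 protein-coding genes and 55413 genes of all kinds in the GENCODE basic annotation of mm10 (GRCm38). They formed 6 groups by role, namely 6 genes of interferon signalling, 11 interferon-stimulated effectors, 5 sensors and adaptors, 5 genes of NF-kB and its feedback, 7 cytokines, chemokines and receptors, and 5 acute phase proteins. A peak was assigned to a gene where it shared at least 1 bp with the gene body extended by 5 kb on each side, called the window below. All 39 names were found in the annotation. The study compared livers of male C57BL/6 mice aged 3 months (young) with livers of mice aged 21 months (old), with no treatment or engineered allele in either group. Chromatin was immunoprecipitated and sequenced (ChIP-Seq) with antibodies against acetylated lysine 14 of histone H3 (H3K14ac, 3 livers per age), the H3K9 methyltransferase Setdb1 (3 livers per age) and the corepressor Kap1 (2 livers per age). The authors merged the livers of an age before they called peaks, so that 6 lists were used, 1 per mark and age. The lists give positions without heights, scores or read counts, so neither the depth behind a peak nor the variation among livers is known, and for this reason no difference below carries a test.

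Interferons bind receptors that act through transcription factors such as Stat2 and Irf9, which bind the interferon-stimulated response element (ISRE) in front of antiviral genes. In parallel, Toll-like receptors and cytosolic RNA sensors activate NF-kB, which acts on chemokine genes and on its own inhibitors. In the liver, cytokine signals of the interleukin-6 type act through Stat3 on the genes of the acute phase proteins, which hepatocytes secrete into the blood. H3K14ac is found at active promoters and enhancers, whereas Kap1 and Setdb1 are best known for heterochromatin at retroelements and zinc finger genes.

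Before the values, 8 promoters are shown because they cover 3 of the 4 classes that the H3K14ac lists separated, that is a peak at the start site in old liver only (Isg15, Ifih1 and Cxcl1), at both ages (Bst2, Stat2 and Nfkbia) and at neither age (Cxcl10 and Ifit3). The fourth class, with a peak in young liver only, held Nfkb1 and Orm1, and no promoter of theirs was matched. Each is the stretch before the start site that lies outside every annotated exon, taken from the RefSeq promoters of GRCm38.p6 and written 5′ to 3′ on the strand of the gene. Capitals mark matches to 3 motifs on either strand, GAAANNGAA (the ISRE core), TTCNNNGAA (a STAT site) and GGANTTTCC (an NF-kB site). A peak counted at a start site when within 1 kb of it, so a stretch shown need not lie under a peak. Marked motifs lay within an H3K14ac peak at Cxcl1 and Bst2, both in old liver. The stretches of Isg15, Stat2 and Nfkbia shared no base with an H3K14ac peak, and at Ifih1 the marked motif lay outside the peak.
Isg15 (chr4:156200819-156201068, minus strand): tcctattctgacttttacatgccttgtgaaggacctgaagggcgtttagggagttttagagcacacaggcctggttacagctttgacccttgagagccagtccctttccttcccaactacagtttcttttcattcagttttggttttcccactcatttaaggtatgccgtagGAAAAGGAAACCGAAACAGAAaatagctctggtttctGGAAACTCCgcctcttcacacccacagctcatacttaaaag
Ifih1 (chr2:62646256-62646505, minus strand): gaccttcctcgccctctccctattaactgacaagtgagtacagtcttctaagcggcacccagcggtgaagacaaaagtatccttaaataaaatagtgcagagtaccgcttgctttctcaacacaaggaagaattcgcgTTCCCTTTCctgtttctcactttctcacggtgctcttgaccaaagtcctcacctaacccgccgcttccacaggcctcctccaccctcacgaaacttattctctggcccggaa
Cxcl1 (chr5:90890995-90891240, plus strand): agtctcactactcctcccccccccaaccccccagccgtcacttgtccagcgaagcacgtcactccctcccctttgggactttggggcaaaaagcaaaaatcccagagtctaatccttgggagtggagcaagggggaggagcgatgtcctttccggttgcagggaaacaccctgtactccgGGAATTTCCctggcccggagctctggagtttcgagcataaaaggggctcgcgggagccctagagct
Bst2 (chr8:71537473-71537722, minus strand): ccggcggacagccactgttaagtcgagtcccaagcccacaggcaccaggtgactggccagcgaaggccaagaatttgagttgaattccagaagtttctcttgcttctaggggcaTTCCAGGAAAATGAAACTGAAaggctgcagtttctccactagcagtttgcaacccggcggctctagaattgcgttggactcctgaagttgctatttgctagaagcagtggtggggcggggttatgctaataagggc
Stat2 (chr10:128270248-128270497, plus strand): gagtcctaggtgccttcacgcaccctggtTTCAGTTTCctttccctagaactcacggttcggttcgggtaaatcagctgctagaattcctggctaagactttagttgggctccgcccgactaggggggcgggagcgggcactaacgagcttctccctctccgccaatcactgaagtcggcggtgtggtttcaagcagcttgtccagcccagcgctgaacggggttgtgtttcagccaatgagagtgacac
Nfkbia (chr12:55492648-55492897, minus strand): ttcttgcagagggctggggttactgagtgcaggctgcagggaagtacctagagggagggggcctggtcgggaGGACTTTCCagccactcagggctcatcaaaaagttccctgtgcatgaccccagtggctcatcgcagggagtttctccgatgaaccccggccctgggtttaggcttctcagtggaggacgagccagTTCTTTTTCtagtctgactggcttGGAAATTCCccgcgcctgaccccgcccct
Cxcl10 (chr5:92348890-92349139, minus strand): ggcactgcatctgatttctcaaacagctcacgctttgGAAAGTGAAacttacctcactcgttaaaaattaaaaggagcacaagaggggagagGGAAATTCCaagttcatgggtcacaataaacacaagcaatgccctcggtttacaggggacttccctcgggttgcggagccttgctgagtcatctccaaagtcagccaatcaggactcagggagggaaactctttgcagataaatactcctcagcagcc
Ifit3 (chr19:34583279-34583528, plus strand): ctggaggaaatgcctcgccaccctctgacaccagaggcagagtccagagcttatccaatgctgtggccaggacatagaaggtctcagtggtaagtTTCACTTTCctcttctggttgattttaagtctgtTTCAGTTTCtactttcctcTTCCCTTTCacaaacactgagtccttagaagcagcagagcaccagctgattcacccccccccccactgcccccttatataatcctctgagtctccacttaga
The 3 promoters with the most ISRE cores among the members were those of Isg15, Ifit1 and Ifit3, with 3 matches each. In Isg15 the 3 matches formed 1 run in which each overlapped the next. In Bst2 the STAT site shared bases with an ISRE core, and so did the STAT site of Myd88.

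The marks are each set beside their own background share and are not compared, since the lists differ in threshold and peak width. In young liver 16 of the 39 members (41.0%) had at least 1 H3K14ac peak in the window, against 32.5% of all protein-coding genes, and in old liver 18 members (46.2%) did, against 40.4%. Wilson 95% intervals, which cover counting error only, ran from 27.1% to 56.6% and from 31.6% to 61.4%, and thus included both background shares. They treat the members as independent, although the windows of Ifit2 and Ifit3, of Oas2 and Oas3 and of Saa1 and Saa2 overlapped. The intervals describe the counts and are no test. Setdb1 peaks were found at 15 members in young liver (38.5%, background 43.7%) and at 4 in old liver (10.3%, background 17.8%). Kap1 peaks were found at 5 members at each age (12.8%), against 34.4% of all genes in young and 19.3% in old liver. For Kap1 in young liver the interval of the members, 5.60% to 26.7%, lay below the background share. With 10 kb on each side in place of 5 kb, this count was 10 members (25.6%, interval 14.6% to 41.1%, background 40.1%), and the interval then included the background. The windows of the members were shorter than those of all protein-coding genes, with a median of 16.6 kb against 27.4 kb, and their part in these shares was not tested. In all, 10 members had no peak in any list, which is 25.6% against 20.7% of all genes.

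**Figure D1:**
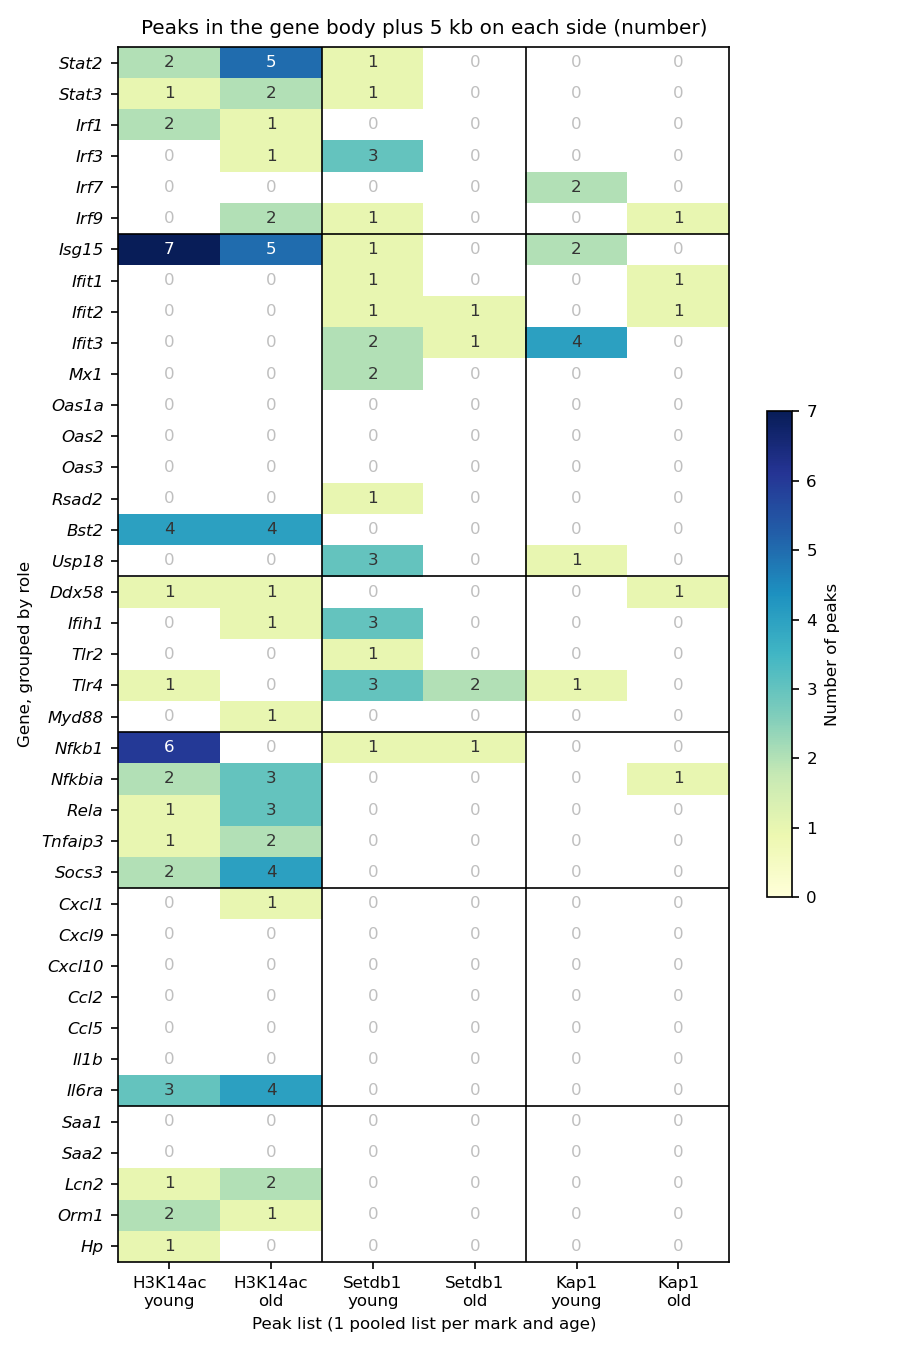
Number of peaks in the window of each of the 39 genes (rows, grouped by role with black lines) in each of the 6 pooled lists (columns); a darker cell holds more peaks. In young liver H3K14ac peaks were present at all 5 genes of NF-kB and feedback and Setdb1 peaks at 7 of 11 effectors (all genes 32.5% and 43.7%), and 10 rows are at 0 throughout. The young Setdb1 peaks of Isg15, Ifit1, Ifit2 and Ifit3 lay outside the gene bodies, and Ifit2 and Ifit3 shared a peak.

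**Figure D2:**
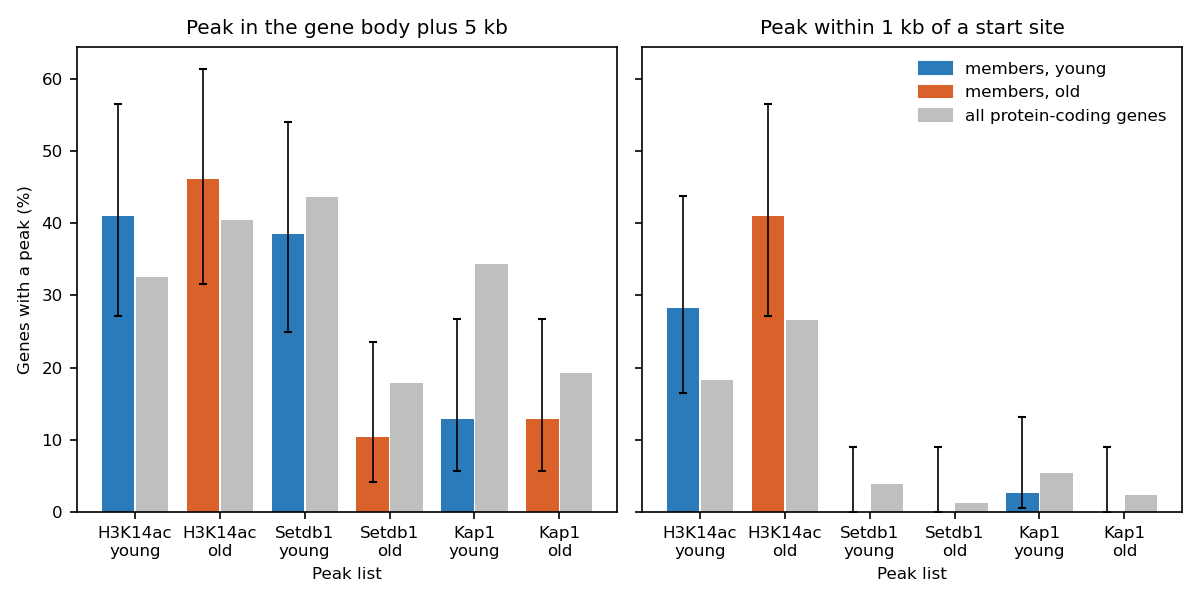
Share of the 39 genes with a peak (percent, blue for young and orange for old, with 95% Wilson intervals for counting error) beside the share of all protein-coding genes (grey), for the window (left) and for 1 kb around a start site (right). H3K14ac at start sites stood at 28.2% of the members in young and 41.0% in old liver, and Setdb1 was at 0 there.

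Per length of sequence, H3K14ac peaks were denser in the members than in genes at large. The windows of the members were shorter (median 16.6 kb against 27.4 kb), and the part of this in the ratios below was not tested. The merged windows of the members covered 1.06 Mb and held 37 young and 43 old H3K14ac peaks, or 34.8 and 40.4 peaks per Mb, which is 3.69 and 3.56 times the density over the windows of all protein-coding genes. At Stat2, Stat3, Bst2 and Rela some old peaks overlapped one another and were counted separately, while no young peaks of the members did so. The old number thus exceeds the number of separate stretches, and the higher old count is not a count of added sites. The corresponding ratios were 1.19 and 0.950 for Setdb1 (24 young and 5 old peaks) and 0.572 and 0.642 for Kap1 (10 young and 5 old peaks). With 10 kb on each side the Kap1 ratios turned to 1.24 in young and 1.38 in old liver, so that the direction for Kap1 depended on the width of the window. The lists themselves differed in size between the ages. Old liver had 106% of the young number of H3K14ac peaks, 27.4% of the young number of Setdb1 peaks and 45.3% of the young number of Kap1 peaks. Out of every 10000 peaks of a list, 4.74 young and 3.60 old Setdb1 peaks fell in the windows of the members, and 2.04 young and 2.26 old Kap1 peaks did.

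By age, 13 members had H3K14ac in the window at both ages (background 21.6%), 3 in young liver only (Tlr4, Nfkb1 and Hp, background 10.8%) and 5 in old liver only (Irf3, Irf9, Ifih1, Myd88 and Cxcl1, background 18.8%). At start sites, defined as within 1 kb, H3K14ac was found at 11 members in young liver (28.2%, background 18.3%) and at 16 in old liver (41.0%, background 26.6%). In young liver the interval of this share, 16.5% to 43.8%, included the background. In old liver the interval, 27.1% to 56.6%, lay just above the background. The members were chosen with earlier results of these data known, so the position of the interval is no test. At both ages, 9 members had H3K14ac at a start site, which is 23.1% of the list against a background of 11.5%. These were Stat2, Stat3, Irf1, Bst2, Nfkbia, Rela, Tnfaip3, Socs3 and Il6ra. Old liver alone had a start site peak at Irf3, Irf9, Isg15, Ddx58, Ifih1, Myd88 and Cxcl1, which is 7 members or 17.9% against 15.1% of all genes. Young liver alone had one at Nfkb1 and Orm1, which is 2 members or 5.13% against 6.87%. The shares found at 1 age only were thus near those of all genes. A peak that covered an annotated start site was present at 6 members in young liver (background 8.28%) and at 10 in old liver (background 13.9%). In whole liver, a different share of a cell type and a different level of the mark within cells cannot be told apart.

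**Figure D3:**
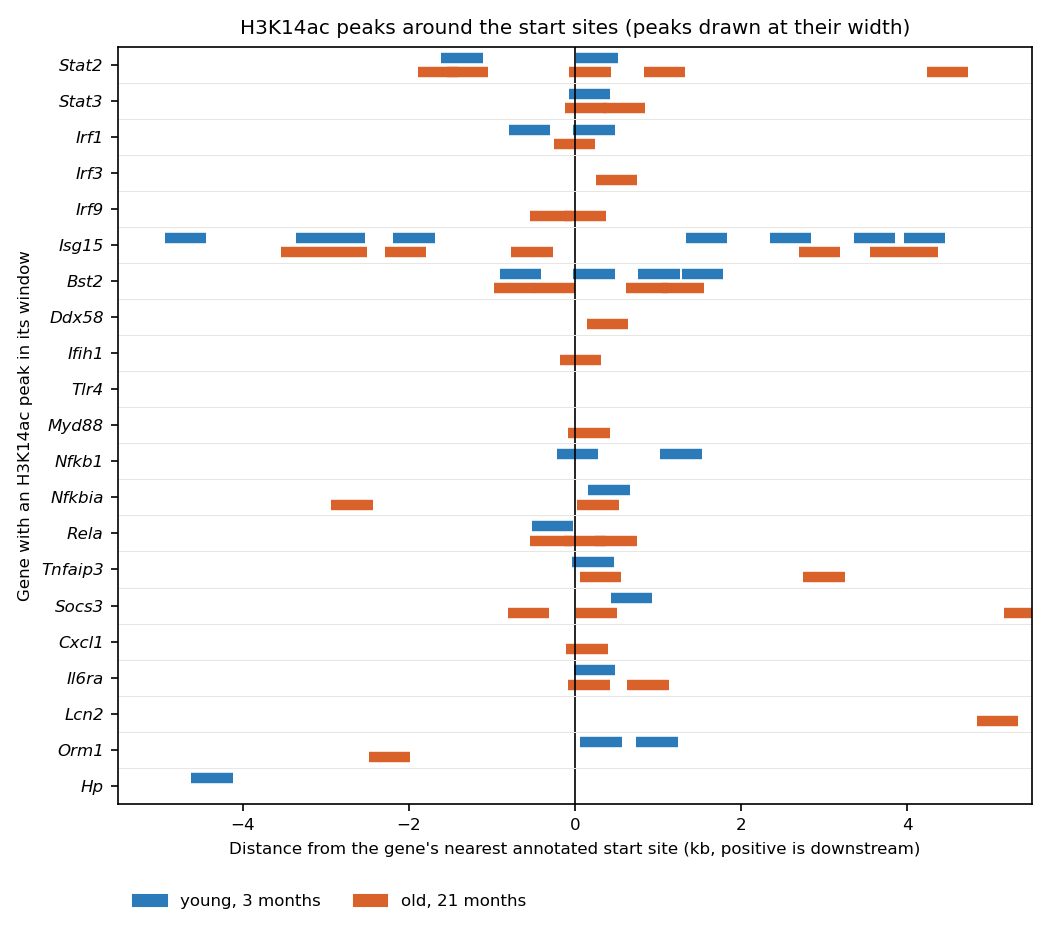
H3K14ac peaks of the members (bars at their width in bp, blue for young and orange for old) by distance from the nearest annotated start site of the gene, in kb, with downstream to the right; peaks farther than about 5.5 kb are outside the frame, which leaves the row of Tlr4 empty. At Irf3, Irf9, Ddx58, Ifih1, Myd88 and Cxcl1 there are orange bars at the start site and no blue ones, and at Nfkb1 and Orm1 the blue bars stand alone there.

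Among the signalling genes, the transcription factors Stat2, Stat3 and Irf1 had H3K14ac over or beside the start at both ages. Stat2, the partner of Irf9 in the interferon-activated complex, had 2 young peaks and 5 old peaks in its window. The young peak at chr10:128270591-128271090 and the old peak at chr10:128270507-128271006 overlapped in the start region. An old peak in an intron began 825 bp downstream of the start and had no young partner. The upstream peaks of Stat2 lay over an exon of Apof, a neighbouring apolipoprotein gene. Stat3, which carries the interleukin-6 signal, had 1 young peak (chr11:100938958-100939457) and 2 old peaks, all within 1 kb of a start. The 2 old peaks overlapped each other, and both overlapped the young peak. Irf1, an interferon-inducible activator, had 2 young peaks and 1 old peak, the old one at chr11:53770239-53770738.

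Irf3 and Irf9 had H3K14ac in old liver only. Irf3, the factor that RNA sensing switches on, had a single old peak at chr7:44998200-44998699, in an intron 251 bp from an annotated start. The nearest young peak lay 20220 bp from the 5′ end of the gene. Irf9, the DNA-binding partner of Stat2, had 2 old peaks at chr14:55603439-55603938 and chr14:55604038-55604537, and the nearest young peak was 11319 bp from its 5′ end. Irf7, the amplifier of the type I interferon response, had no H3K14ac peak at either age and 2 young Kap1 peaks. One of these was exonic, at chr7:141264259-141264408, and the other lay over an exon of the neighbour Phrf1. In this group Setdb1 was found at 4 genes in young liver (Stat2, Stat3, Irf3 and Irf9) and at 0 in old liver, against 43.7% and 17.8% of all genes, and the old Setdb1 list held 27.4% of the young number of peaks. All 3 Setdb1 peaks of Irf3 lay over exons of the neighbours Bcl2l12 and Scaf1.

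The sole site where both corepressor proteins shared bases in these genes was an intron of Irf9, between a young Setdb1 peak and an old Kap1 peak. The sequences are given because they show which bases the 2 lists had in common, and no motif was marked in them.
Irf9, Setdb1 young (chr14:55608368-55608567, plus strand): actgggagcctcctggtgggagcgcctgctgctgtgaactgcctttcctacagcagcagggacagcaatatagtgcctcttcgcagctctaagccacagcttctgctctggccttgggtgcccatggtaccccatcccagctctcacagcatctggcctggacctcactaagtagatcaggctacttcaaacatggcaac
Irf9, Kap1 old (chr14:55608333-55608482, plus strand): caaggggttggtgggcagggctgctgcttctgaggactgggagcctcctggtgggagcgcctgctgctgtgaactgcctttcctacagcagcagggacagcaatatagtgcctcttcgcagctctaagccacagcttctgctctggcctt
Neither list had a peak of the same protein at the other age in this window.

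Of the 11 interferon-stimulated effectors, 2 had an H3K14ac peak in the window at each age (all genes 32.5% in young and 40.4% in old liver), and both times these were Isg15 and Bst2. Bst2 (tetherin), which holds budding virions at the cell surface, had 4 young and 4 old H3K14ac peaks within about the same stretch, and every one of them overlapped a peak of the other age. The peaks at its start were chr8:71536979-71537478 in young and chr8:71537456-71537955 in old liver. The old one contained 2 ISRE cores and 1 STAT site, which are capitalised in the promoter above, and the young one contained none.

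Isg15, a ubiquitin-like modifier, had 7 young and 5 old H3K14ac peaks, the highest number among the members in young liver and level with Stat2 in old liver. Most of them lay near its neighbours. In young liver, peaks were found in Agrn and AW011738 and between these genes and Isg15, and the nearest to the Isg15 start was exonic at chr4:156198986-156199485, 1333 bp downstream. In old liver the peak at chr4:156201086-156201585 came within 268 bp upstream of the start, where the young list had none. A young Kap1 peak lay 824 bp upstream at chr4:156201642-156201791, the only factor peak within 1 kb of a member's start site. In that peak 32.8% of the 32-base words occurred at 1 place in the genome, a low share that bears on how well reads can be placed there. Kap1 start site peaks were thus found at 1 member in young liver (background 5.32%) and at 0 in old liver (background 2.30%). Setdb1 had 0 members with a start site peak at both ages, against 3.91% of all genes in young and 1.15% in old liver.

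The other effectors had no H3K14ac peak, and 6 of them had Setdb1 in young liver, where 43.7% of all genes did. Mx1, a dynamin-like GTPase against influenza viruses, had 2 young Setdb1 peaks, one exonic and one 2423 bp upstream of a start. Usp18, which removes Isg15 from proteins, had 3 young Setdb1 peaks and 1 young Kap1 peak and none in old liver. Rsad2 (viperin) had 1 young intronic Setdb1 peak at chr12:26452228-26452427. The nearest H3K14ac peaks lay 7361 bp from the 5′ end of Rsad2 in young liver and 468735 bp in old liver.

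Ifit1, Ifit2 and Ifit3 bind viral RNA or take part in complexes that do so, and they lie beside each other on chromosome 19. None of them had H3K14ac, and all of them had Setdb1 in young liver, in each case between genes and not in the gene body. One young Setdb1 peak between Ifit2 and Ifit3, at chr19:34581324-34581523, fell in the windows of both. Kap1 was at Ifit3 in young liver, with 4 peaks, 2 of them intronic and 2 downstream of the gene. In old liver, Kap1 was instead at Ifit1 and Ifit2, with 1 peak each. Beyond Ifit3, a young and an old Setdb1 peak overlapped, the only pair of Setdb1 peaks of both ages among the members. Only 54.4% of the 32-base words in the Ifit3 window occurred at 1 place in the genome. In the 4 Kap1 peaks of Ifit3 the share ran from 42.0% to 81.5%, whereas it was 100% in the young and 94.1% in the old Setdb1 peak of the pair. The sequences of this pair follow because they are the single Setdb1 site kept between the ages.
Ifit3, Setdb1 young (chr19:34588903-34589102, plus strand): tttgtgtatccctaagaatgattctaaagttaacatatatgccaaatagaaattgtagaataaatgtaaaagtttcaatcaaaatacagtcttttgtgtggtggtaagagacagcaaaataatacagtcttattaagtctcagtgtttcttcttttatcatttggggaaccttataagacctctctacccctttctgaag
Ifit3, Setdb1 old (chr19:34588965-34589164, plus strand): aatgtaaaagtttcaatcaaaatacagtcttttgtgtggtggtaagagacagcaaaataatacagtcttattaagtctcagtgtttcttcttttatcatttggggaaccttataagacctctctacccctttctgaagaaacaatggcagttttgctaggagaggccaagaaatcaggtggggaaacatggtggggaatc

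**Figure D4:**
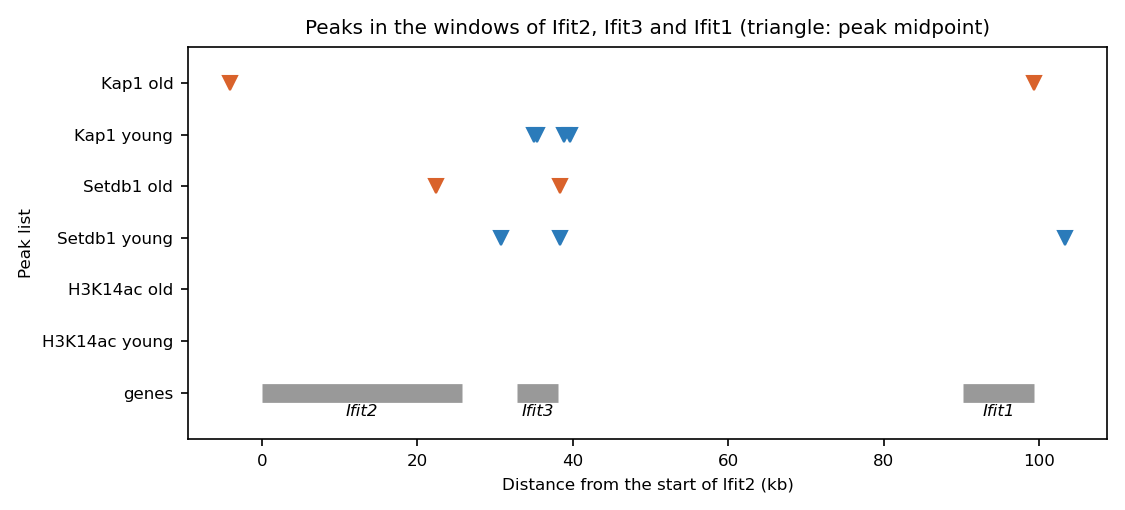
Peaks in the windows of Ifit2, Ifit3 and Ifit1 (triangles at peak midpoints, blue for young and orange for old) by list, over distance from the start of Ifit2 in kb, with the gene bodies as grey bars. The young and old Setdb1 triangles coincide downstream of Ifit3, the 4 young Kap1 triangles lie within and beside that gene, and both H3K14ac rows are empty.

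The oligoadenylate synthetases Oas1a, Oas2 and Oas3, which activate RNase L, had no peak in any list. In the window of Oas1a, 59.1% of the 32-base words occurred at 1 place. Their nearest H3K14ac peaks lay 144438 bp or farther from the 5′ end.

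Among the sensors, the cytosolic RNA helicases Ddx58 (RIG-I) and Ifih1 (MDA5) had start site H3K14ac in old liver only. At Ddx58 the old peak was chr4:40239188-40239687, 141 bp from the start, while the young peak of this gene was intronic and 18384 bp downstream. At Ifih1 the old peak chr2:62645841-62646340 covered a start site, and the nearest young peak lay 233904 bp from the 5′ end. Ifih1 also had 3 Setdb1 peaks in young liver. Myd88, the adaptor of most Toll-like receptors, had 1 old H3K14ac peak, chr9:119339628-119340127, at an annotated start site and none in young liver. Tlr2, the receptor for bacterial lipopeptides, had 1 young Setdb1 peak. Tlr4, the receptor for lipopolysaccharide, lies in a long window of 113 kb and had 3 young and 2 old Setdb1 peaks, 1 young Kap1 peak and 1 young H3K14ac peak, all of them farther than 20 kb from its start. No young Setdb1 peak of Tlr4 overlapped an old one.

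The genes of NF-kB and its feedback had H3K14ac at the start sites of all 5 in young liver and of 4 in old liver, against 18.3% and 26.6% of all genes. Nfkb1, which encodes the p105 and p50 subunit, was the member with the most unequal counts, 6 young peaks and 0 old ones. Its young peaks included chr3:135691270-135691769 over the start and 5 intronic ones, and the nearest old peak was 134767 bp from the 5′ end. Rela, the p65 subunit, had 1 young peak just upstream of the start and 3 old peaks from chr19:5636944 to chr19:5638226. The 3 old peaks overlapped in a row and formed 1 continuous stretch, which also overlapped the young peak. The inhibitor Nfkbia (I-kappa-B alpha) had 2 young and 3 old peaks. At its start, chr12:55491991-55492490 in young and chr12:55492122-55492621 in old liver overlapped. Tnfaip3 (A20), which edits ubiquitin on NF-kB signalling proteins, had 1 young and 2 old peaks, and Socs3, which blocks signalling to Stat3, had 2 young and 4 old peaks. At both genes a young and an old peak overlapped near the start. The factor peaks of this group were 1 Setdb1 peak at each age in Nfkb1, which did not overlap, and 1 old Kap1 peak 4137 bp upstream of Nfkbia.

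Of the 7 cytokine, chemokine and receptor genes, 1 had H3K14ac in young and 2 in old liver (all genes 32.5% and 40.4%). Cxcl1, which attracts neutrophils, had 1 H3K14ac peak, in old liver, at chr5:90891134-90891633 over the start, and the nearest young peak lay 188585 bp away. Il6ra, the interleukin-6 receptor that hepatocytes use, had 3 young and 4 old H3K14ac peaks, and those at its start overlapped (chr3:89912680-89913179 in young and chr3:89912745-89913244 in old liver). The lymphocyte chemoattractants Cxcl9 and Cxcl10, the monocyte chemoattractant Ccl2, the T cell chemoattractant Ccl5 and the cytokine Il1b had no peak in any list. No gene of this group had a Setdb1 peak, against 43.7% of all genes in young and 17.8% in old liver, or a Kap1 peak, against 34.4% and 19.3%.

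The acute phase proteins, products of hepatocytes, had H3K14ac at 3 of 5 genes in young and at 2 of 5 in old liver (all genes 32.5% and 40.4%). They had no Setdb1 peak (all genes 43.7% and 17.8%) and no Kap1 peak (34.4% and 19.3%). Orm1 (orosomucoid), a plasma glycoprotein, had 2 young peaks at chr4:63344619-63345118 and chr4:63345297-63345796, both exonic and just after the start. Its old peak was 1986 bp upstream and overlapped neither. Hp (haptoglobin), which binds free haemoglobin, had 1 young peak 4121 bp upstream and no old one. Lcn2, an iron-siderophore binding protein, had 1 young and 2 old peaks downstream of the gene, close to the neighbour 1110008P14Rik. Saa1 and Saa2, the serum amyloids of the acute phase, had no peak, with the nearest H3K14ac peak of old liver 23463 bp from the 5′ end of Saa1. Orm1, Saa1 and Saa2 belong to gene families with close copies, and 83.2% to 86.7% of the words in their windows occurred at 1 place.

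For Setdb1, the age classes were 11 members in young liver only (background 31.4%), 0 in old liver only (background 5.47%) and 4 at both ages (Ifit2, Ifit3, Tlr4 and Nfkb1, background 12.3%). Where both ages had a peak, the positions coincided at Ifit3 alone. For Kap1, 5 members had a peak in young liver only (Irf7, Isg15, Ifit3, Usp18 and Tlr4, background 21.6%), 5 in old liver only (Irf9, Ifit1, Ifit2, Ddx58 and Nfkbia, background 6.51%) and 0 at both ages (background 12.8%). No member thus kept Kap1 between the ages, whereas with 10 kb on each side 5 members (12.8%) had Kap1 at both ages, against 15.5% of all genes. With counts of this size and no replicate spread, these classes describe the lists and no more.

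Some peaks of the members were kept between the ages. Their narrowest Kap1 peaks measured 150 bp, Setdb1 peaks 200 bp and H3K14ac peaks 500 bp, and a wider peak overlaps another more easily, so each mark is set beside its own background and the marks are not compared. Of the 37 young H3K14ac peaks, 19 (51.4%) overlapped an old peak, and of the 43 old peaks 22 (51.2%) overlapped a young one. Over the windows of all protein-coding genes the same shares were 28.6% and 24.1%. For Setdb1, 1 of 24 young peaks had an old partner, against 0.794% over all genes. For Kap1, 0 of 10 young and 0 of 5 old peaks had a partner at the other age, against 7.06% and 16.0% over all genes. Peaks at members within 1 kb of the gene's own start numbered 15 in young and 25 in old liver for H3K14ac. Overlapping old peaks, as at Stat3, Bst2 and Rela, were counted separately in these numbers. The start site nearest to a peak was that of the member for 29 of 37 young and 34 of 43 old H3K14ac peaks, and for 18 of 24 young Setdb1 peaks. Across marks, peaks at 1 age shared bases at a single site, a young H3K14ac and a young Kap1 peak about 4 kb upstream of Isg15.

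The CpG content of the starts varied with the H3K14ac class. The ratio of observed to expected CpG in 1000 bases around the 5′ end had a median of 0.720 in the 9 members with a start site peak at both ages (lowest 0.461 at Socs3, highest 0.922 at Irf1). In the 7 members with a peak in old liver only the median was 0.481, from 0.237 at Isg15 to 0.749 at Myd88. In the 21 members with no start site peak it was 0.208, from 0.0544 at Saa1 to 0.609 at Usp18. The ranges of the both-age, old-only and no-peak classes overlapped. Nfkb1 had 0.969 and Orm1 0.148, the pair with a young peak only. Over all protein-coding genes the medians of the same classes were 0.775, 0.744, 0.369 and, for young only, 0.671, so that the median of the members was lower in each class, with 0.558 for the young-only pair.

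**Figure D5:**
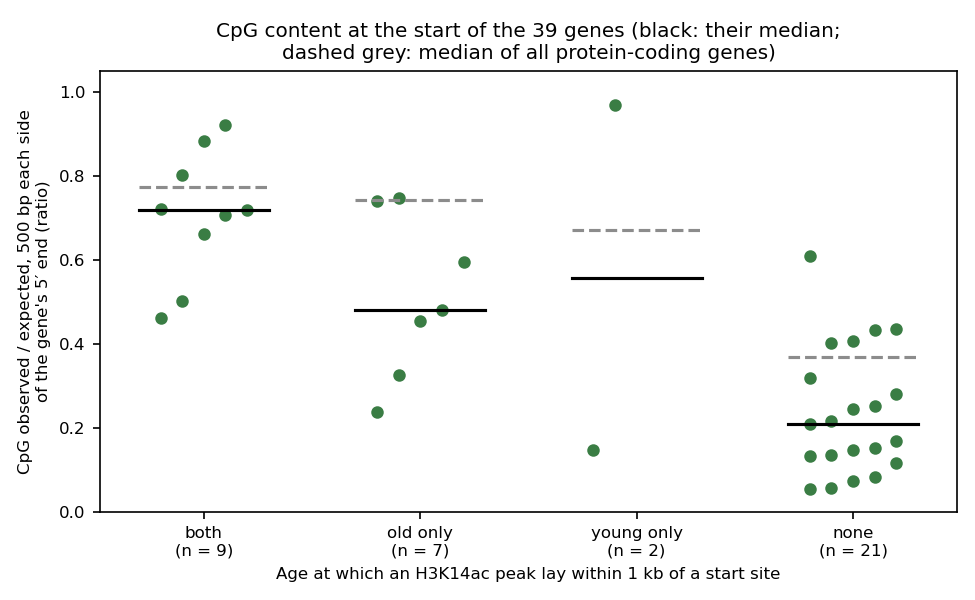
Ratio of observed to expected CpG in the 500 bp on each side of the 5′ end of each member (points), by the age at which H3K14ac lay within 1 kb of a start site, with medians of the members (black) and of all protein-coding genes of that class (dashed grey). The median of the members with no start site peak is lowest, at 0.208, and that of members with a peak at both ages highest, at 0.720, while the ranges of the classes overlap.

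RefSeq promoters of 300 bases were matched for 30 of the 39 members (34 promoters), without Mx1, Oas2, Usp18, Tlr4, Nfkb1, Ccl2, Ccl5, Orm1 and Hp. The ISRE core was found in 14 of these promoters (41.2%), against 8.56% of 32851 promoters of the same length. It was in 7 of 8 effectors with a promoter sequence, in 3 of 4 sensors and adaptors, and in 0 of 3 acute phase genes. The other groups lay between, with 2 of 5 cytokine, chemokine and receptor genes, 1 of 4 genes of NF-kB and feedback and 1 of 6 signalling genes. STAT sites were found in 6 promoters (17.6%, all promoters 8.30%) and NF-kB sites in 6 (17.6%, all promoters 1.25%). NF-kB sites were in Cxcl1, Cxcl10, Isg15, Myd88, Nfkbia and Tnfaip3. By H3K14ac class, the ISRE core was in 3 of 9 members with a start site peak at both ages, in 4 of 7 with an old peak only and in 7 of 14 with none. Members without H3K14ac thus held the motif too, as the promoters of Cxcl10 and Ifit3 above show. A match is a run of letters and was not measured as bound.

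Within the peaks themselves, 6 of 37 young and 10 of 43 old H3K14ac peaks at members held the ISRE core (16.2% and 23.3%), compared with 13.9% of all peaks in each list. NF-kB sites were in 2 young and 5 old peaks (5.41% and 11.6%), against 1.93% and 1.86%. STAT sites were in 2 young and 8 old peaks (5.41% and 18.6%), against 14.4% and 13.1%. The H3K14ac peaks of the members were also richer in G and C than the lists, with a median of 53.4% against 46.8% in young and 56.2% against 49.2% in old liver. Young Setdb1 peaks held the ISRE core in 3 of 24 cases, against 7.49% of that list.

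A further 100 genes of the same pathways that are no members was counted in the same way. H3K14ac was in the window of 38 in young and 49 in old liver (all genes 32.5% and 40.4%), and at the start site of 26 and 36 (all genes 18.3% and 26.6%). By age, 9 had it at the start site in young liver only, 19 in old liver only and 17 at both ages, against 6.87%, 15.1% and 11.5% of all genes. The young-only genes were Ccl3, Dhx58, Hamp, Ifnar2, Ifngr2, Ikbke, Il1rap, Itih3 and Ripk1. The first 10 old-only genes in alphabetical order were Cp, Cxcl2, Fga, Ikbkb, Ikbkg, Il6st, Irf2, Jak2, Mavs and Nfkb2. Setdb1 was in the window of 27 of these genes in young liver and 14 in old (all genes 43.7% and 17.8%), Kap1 in that of 19 and 4 (all genes 34.4% and 19.3%). As a check of the tissue, H3K14ac was in the window of 7 of 10 hepatocyte markers in young and 6 of 10 in old liver. At the start site it was found at 4 of 10 at each age. Alb, Serpina1a and Cps1 had no H3K14ac peak at either age, so a hepatocyte marker can lack a peak in these lists. H3K14ac was at 0 of 8 Kupffer cell markers and 0 of 6 neutrophil markers in young liver, and at 0 and 1 in old liver. Lymphocyte markers had it at 1 of 8 in young and 2 of 8 in old liver, with 0 start site peaks at each age. Stellate cell markers had it at 3 of 8 in young liver, 2 of them at the start site, and at 2 of 8 in old liver. Endothelial markers had it at 2 of 8 at each age, and cholangiocyte markers at 0 of 6 in young and 2 of 6 in old liver, 1 of these at the start site. The part of these cells in the members' peaks was not tested.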

How the data were processed

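The members, the other gene lists and the ways of counting were chosen with earlier results of these data known. Per the labels and methods, the authors mapped the liver ChIP-Seq reads with BWA (mm10), discarded duplicates (Picard) and reads of ambiguous origin, pooled the livers at each age and ran PeakSeq on the pool with input as control, with a q threshold that differed between the marks. The 6 deposited lists hold chromosome, start and end only, with no score or depth, and were used whole after trailing spaces in chromosome names were removed. Peaks were assigned to genes by at least 1 bp of overlap with the gene body plus 5 kb (GENCODE M21 basic), and to start sites within 1 kb. Background shares are over 21938 protein-coding genes. Counting was tested on simulated data and gave 0 differences from bedtools 2.31.1 in 21938 windows of each list. Shares of unique 32-base words were counted over both strands of GRCm38. All members are accounted for. Other pathway genes were named by age class, up to 10 per direction in alphabetical order. No test was made, since the lists pool the livers. The sequential ChIP samples were not analysed here. Scripts ran under Python 3.11.15 with numpy 2.4.6; figures were drawn with matplotlib 3.10.9.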

Additional observations from a re-analysis of the deposited data

How the results depend on the processing

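No paired analysis was possible because each list pools the livers of an age, and no liver could be left out. Of 156 recounts, 129 stayed within 1.5 times the value above; every recount of how many members had H3K14ac was among them. Those that moved were as follows. Without a flank, Setdb1 was found at 9 members in young liver, at 7 in young only, 1 in old only and 2 at both ages, and Kap1 at 2 in old liver, both in old only, with a density ratio of 0.426 in old liver. With a 10 kb flank, Kap1 was found at 10 members in young and 9 in old liver, 5 at both ages, and its density ratio was 1.24 in young and 1.38 in old liver, above 1 in place of below. Counting by peak midpoint gave 1 member with Setdb1 in old only. Within 5 kb of a start site, Setdb1 was at 6 members in young and 1 in old liver, while Kap1 was at 3 in young and 3 in old; within 500 bp, Kap1 in young was at 0. Against whole chromosomes the density ratio of H3K14ac in old liver was 5.39. Alternatives added after seeing the data were use of the leading 50% of a list as deposited, peaks nearest to the gene's own start, and other distances for the age classes at start sites. What the deposited order ranks is not given in the sources used here, so the leading 50% cannot be read as the stronger peaks. With it, Setdb1 was at 1 member in old liver, 1 in old only and 0 at both ages, and Kap1 at 3 in young, 3 in young only, 1 in old and 1 in old only, with 0 at start sites in young. The cause was not tested. A peak missing from a list can lie just under the caller's threshold, and the list sizes differ between the ages.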
